A study of Mus musculus with 8 samples.

Results

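The enzymes that attach ubiquitin to proteins and take it off again were followed as mouse embryonic stem (ES) cells became epiblast-like aggregates (ELA). They were taken by gene symbol: symbols such as Usp, Uba, Ube, Ubr, Rnf, Trim or Cul followed by a number, those that begin with Fbx, Klhl, Kctd, Otu, Uchl or Herc, and some by full symbol, among them Huwe1, Itch, Mycbp2 and Nedd4, other than Usp9x and Rnf2. Of the 3160 genes in the table, 111 were taken. They were 15 conjugating enzymes, 1 activating enzyme, 29 RING and RING-related ligases, 8 HECT ligases, 2 U-box ligases, 6 N-degron readers of the Ubr family, 7 cullins, 20 substrate adaptors of cullin ligases and 23 deubiquitinases. A symbol does not fix the substrate: Uba2 is the activating subunit for the ubiquitin-like protein SUMO.

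Ubiquitin is passed along a chain of enzymes. An activating enzyme (E1) loads it onto a conjugating enzyme (E2), and a ligase (E3) brings the loaded E2 to the substrate, or, in HECT ligases, takes ubiquitin over before passing it on. Cullins are scaffolds that hold a RING subunit at one end and an exchangeable adaptor, such as an F-box or a BTB protein, at the other. Deubiquitinases cut ubiquitin off. In pluripotent cells the system sets the turnover of many transcription and cell cycle factors.

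All samples came from 1 line, E14Tg2A, of strain 129/Ola, with no engineered allele. ES cells (0 days in vitro) grew on gelatin with serum and LIF, and ELA formed from these cells over 2 days in suspension in a serum-free medium without LIF. Cells of both stages received cycloheximide, which stalls ribosomes, before lysis. From each lysate, total RNA (input) was set beside RNA recovered with an antibody to the endogenous ribosomal protein Rpl10a (Rpl10a-IP), giving 4 groups of 2 libraries. The labels do not say whether replicates were separate cultures, so p-values measure the spread between these libraries, which limma shared over genes.

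The depth was very uneven. The Rpl10a-IP libraries held 16076207 to 23483388 reads over the 3160 genes, the ES input libraries 3898414 and 5380139, and the ELA input libraries 159587 and 410192, with medians of 26 and 66 reads per gene. Values below are normalised counts, reads divided by a library scale. In the ELA input libraries 1 read was worth 27.2 and 10.6 normalised counts, and elsewhere at most 1.15. Input and Rpl10a-IP were scaled together, so above or below input means relative to the typical gene of the table. A change of translation shared by most genes cannot be seen in these values. Of the naive markers listed, 6 of 11 were in the table, and all 6 fell in total and in ribosome-bound RNA (summed count 19420 and 19870 in ES input, 2284 and 2162 in ELA input). Both epiblast markers in the table, Dnmt3a and Dnmt3b, rose, and 3 of 4 pluripotency markers were present. Of these Pou5f1 fell in total and in ribosome-bound RNA (by 1.18 and 1.73 on the log2 scale), Sall4 rose by 0.25 in total RNA and fell on ribosomes, and Lin28a passed in neither. Of the markers of other cell types, the table held 1 of 4 neural ones, 1 of 4 fibroblast ones, 0 of 6 mesendoderm ones and 0 of 3 trophoblast ones. The neural one, Nes, went from 375 and 372 in ES input to 2229 and 2035 in ELA input, and the fibroblast one, Vim, from 1738 and 1505 to 979 and 763. The part of other cells in the results below was not tested, and in such bulk samples fewer cells of a type and less RNA per cell cannot be told apart.

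The genes on which the results turn stood at both ends of the size range. Their start codons are shown with the 9 bases before and the 1 base after, since this is the sequence at which a scanning ribosome begins. The base 3 before the ATG, the ATG and the base after it are in capitals. The first 4 are very large ligases and the last 4 small conjugating enzymes, from GENCODE vM1 transcripts.
Herc1: taaatcAacATGG
Mycbp2: gtggcgAggATGA
Ubr2: ggagagAagATGG
Ubr4: cgacgaAagATGG
Ube2e1: gggttcGctATGT
Ube2v2: caggagAagATGG
Ube2b: ctgcggAgcATGT
Ube2k: ggcagaGacATGG
A purine (A or G) 3 bases before the ATG was present in all 8. It was present in 84 of the 105 enzymes with a readable context (80.0%), against 87.7% of 2950 genes of the table. A purine there together with G after the ATG was found in 47 of the 105 (44.8%) and in 47.5% of all. Among the 15 conjugating enzymes 14 had the purine and 7 had both, and among the 6 N-degron readers 6 had the purine and 5 had both. The change of the ratio described below had a median of 0.22 on the log2 scale in the 84 enzymes with the purine and −0.23 in the 21 without, and of 0.33 in the 47 with both and −0.09 in the 58 others. Within the conjugating enzymes the medians were −0.67 in the 7 with both and −0.76 in the 8 others. None of these medians is corrected for coding length. The purine was present in 17 of 27 RING ligases and 13 of 20 adaptors, against 6 of 6 HECT ligases. Whether the start context, the class or the length goes with the ratio was not tested. The coding length was 5268 to 15627 nucleotides in the ligases shown and 438 to 603 in the E2s. In GRCm38.p6 coordinates these genes are Herc1 (chr9:66350412-66508775), Mycbp2 (chr14:103113411-103346840), Ubr2 (chr17:46928291-47010886), Ubr4 (chr4:139380659-139489533), Ube2e1 (chr14:18282726-18332004), Ube2v2 (chr16:15550986-15594518), Ube2b (chr11:51985138-52004145) and Ube2k (chr5:65537245-65598989).

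The first question was how the ratio of ribosome-bound to total RNA changed from ES cells to ELA. The HECT ligases, U-box ligases and N-degron readers gained: the ratio rose in 8 of 8, 2 of 2 and 5 of 6, with medians of 0.75, 0.77 and 0.93 on the log2 scale. The conjugating enzymes lost: the ratio fell in 10 of 15 and rose in 1, with a median of −0.74. Over all 111 enzymes limma called 40 higher (36.0%) and 28 lower (25.2%) at an adjusted p under 0.05, beside 28.4% higher and 27.7% lower of all 3160 genes. The median was 0.10 over the enzymes and 0.01 over all genes.

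**Figure D1:**
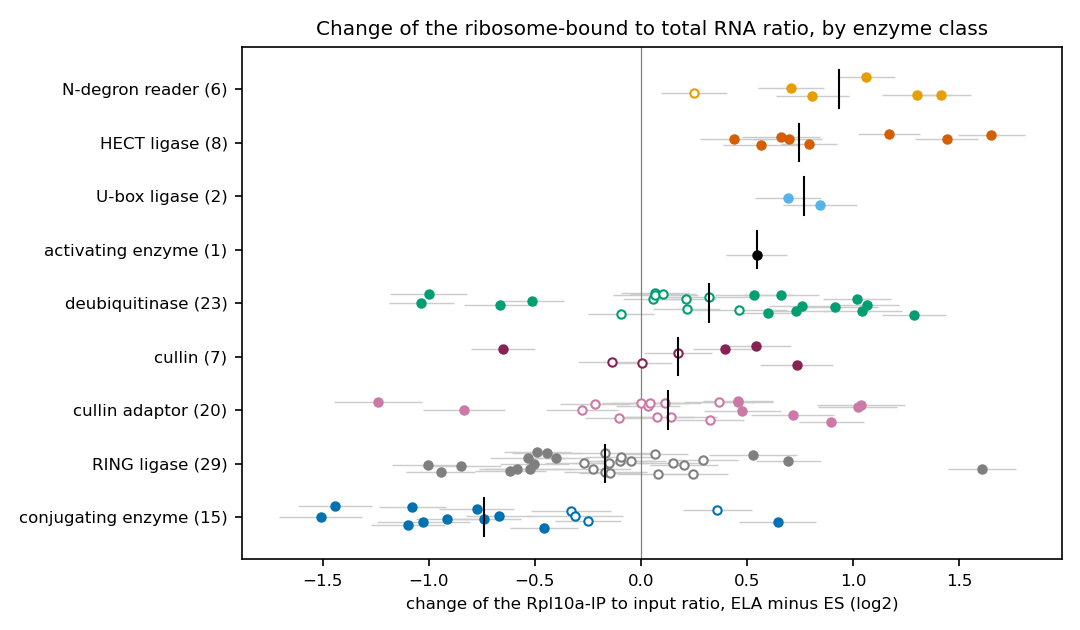
Change of the Rpl10a-IP to input ratio from ES to ELA (log2, horizontal axis) for 111 genes in 9 enzyme classes (rows, number of genes in brackets); points are genes, grey lines the standard error, black bars the class median, and filled points passed the test. The 8 HECT ligases all lie above 0.4 and 13 of the 15 conjugating enzymes lie below 0, with Mycbp2 far to the right among the RING ligases.

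Herc1, a giant HECT ligase, had the largest gain. Its normalised counts were 1806 and 2015 in ES input, 2155 and 2120 in ES Rpl10a-IP, 2800 and 2258 in ELA input, and 9431 and 8315 in ELA Rpl10a-IP. The ELA Rpl10a-IP libraries stood far above the other 6, which lay close together. The ratio went from 1.12 ± 0.10 to 3.53 ± 0.22 (SD, n = 2), a rise of 1.65 on the log2 scale (SE 0.16, adjusted p 2.71e-10 by limma). Mycbp2, a large RING-type ligase best known from axons, showed the same picture, with 1212 and 1315, then 1455 and 1284, in ES, and 2012 and 1579, then 5977 and 5794, in ELA. Its ratio rose from 1.09 ± 0.16 to 3.32 ± 0.49 (SD, n = 2). Huwe1, a giant HECT ligase, stood at 13048 and 13185 in ES input, 16024 and 15004 in ES Rpl10a-IP, 16720 and 13038 in ELA input and 39802 and 38775 in ELA Rpl10a-IP. Nedd4, a HECT ligase of membrane proteins, rose on ribosomes and did not pass the test in total RNA, with 15178 and 15574 in ES input, 15796 and 15710 in ELA input, and 19755 and 21096 against 35452 and 37102 in Rpl10a-IP. Exons of Herc1 overlap those of another annotated gene on the opposite strand, and whether reads were counted by strand is not stated. Exons of Huwe1 and Ubr4 overlap another gene on the same strand, which counting by strand would not resolve. Of the enzymes named below, Fbxl20, Rnf8, Ube2v1 and Usp10 overlap another gene on the same strand. Cul1, Cul5, Fbxo32, Fbxw7, Fbxw8, Rnf115, Rnf214, Ube2c, Ube2e1, Ube4b, Ubr1, Ubr7, Usp7 and Usp54 do so on the opposite strand. The values of all these genes are uncertain to that extent.

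The N-degron readers recognise the first residue of a protein. Ubr4, the largest, had 4206 and 4040 in ES input, 4486 and 4166 in ES Rpl10a-IP, 3426 and 3148 in ELA input, and 9578 and 8809 in ELA Rpl10a-IP. Total RNA fell and ribosome-bound RNA rose, and neither pair of groups overlapped. Ubr2 had 641 and 595 in ES input, 720 and 718 in ES Rpl10a-IP, 952 and 774 in ELA input, and 2538 and 2389 in ELA Rpl10a-IP. Its ratio rose by 1.30 on the log2 scale (SE 0.16, adjusted p 5.68e-08). Ubr7, the shortest of them, was the 1 reader whose ratio did not pass.

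The E2s ran the other way. Ube2e1 had 314 and 253 in ES input and 256 and 274 in ES Rpl10a-IP. In ELA it had 598 and 519 in input, from 22 and 49 reads, and 194 and 173 in Rpl10a-IP. Total RNA was thus higher in ELA and ribosome-bound RNA lower, with no overlap, and the ratio went from 0.95 ± 0.19 to 0.33 ± 0.01 (SD, n = 2). On the log2 scale that change was −1.51 (SE 0.19, adjusted p 7.58e-08 by limma). Ube2v2, a partner of Ube2n that lacks the catalytic cysteine, had overlapping total RNA values, 675 and 696 in ES and 653 and 837 in ELA, but fell on ribosomes from 731 and 734 to 283 and 298. Ube2b, the E2 of Rad18 and Rnf20, had 741 and 668 in ES input and 1223 and 1155 in ELA input, against 618 and 689, then 583 and 454, in Rpl10a-IP. Ube2k, which builds ubiquitin chains that target to the proteasome, rose in input from 1193 and 1221 to 2284 and 2025 and fell in Rpl10a-IP from 1026 and 1115 to 921 and 884. The 3 members of the Ube2d family, general-purpose E2s, all lost ratio, Ube2d1 by 1.03, Ube2d3 by 0.91 and Ube2d2a by 0.67 on the log2 scale. For Ube2d1 the ELA input values come from 12 and 39 reads. The 1 E2 that gained was Ube2o, by 0.65, which is a hybrid of E2 and E3 with a coding length of 3867. Exons of Ube2e1 overlap those of Nkiras1 on the other strand. The study left out the shallower of the ELA input libraries, replicate 1, for its quality. Without it 39 enzymes were higher and 29 lower in the ratio, beside 30.4% and 30.5% of all genes, and Herc1 stood at 1.81, Mycbp2 at 1.78, Ube2e1 at −1.41 and Ube2v2 at −1.62.

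**Figure D2:**
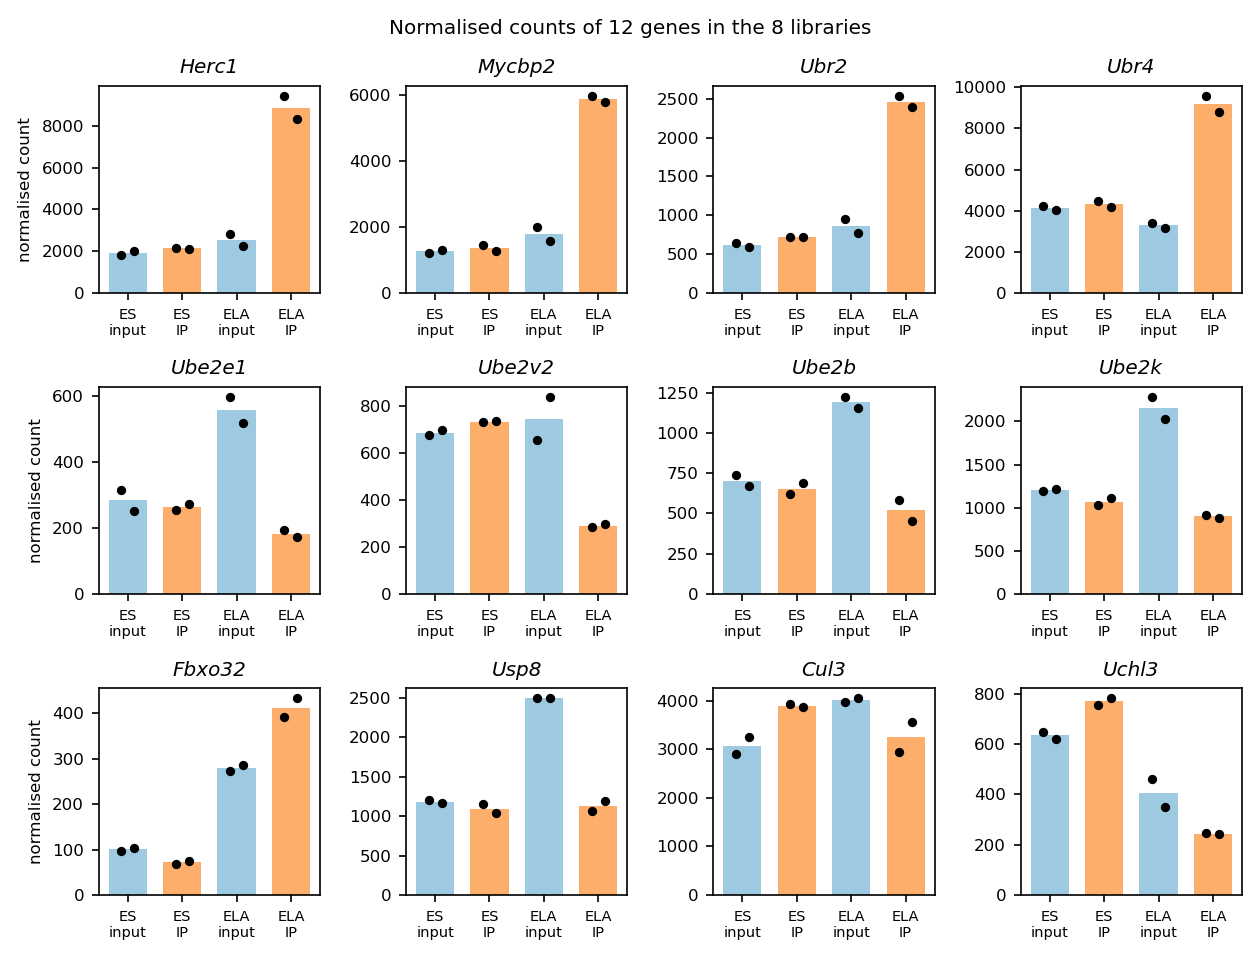
Normalised counts (vertical axis, from 0, own scale per gene) of 12 genes in ES and ELA, in input (blue) and Rpl10a-IP (orange); bars are means of 2 libraries and dots the libraries. In the top row ELA Rpl10a-IP stands above all other groups, and in the middle row it stands lowest.

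Coding length moved with these changes, over the enzymes as over the whole table. Spearman's rho between the change of the ratio and the coding length was 0.74 over the 111 enzymes and 0.64 over the 3119 genes with a transcript. With the length of the 3′ untranslated region it was −0.04 and 0.003. These are descriptions over genes that share the same 8 libraries. Of the 15 enzymes with a coding length under 750 nucleotides, 12 were lower and 0 higher (median −0.77), beside 70.6% lower among all genes of that size. Of the 8 with 6000 or more, 8 were higher and 0 lower (median 1.35), beside 84.4% higher among all genes of that size. The median coding length was 540 nucleotides in the conjugating enzymes, 3233 in the HECT ligases and 5477 in the N-degron readers, against 2160 over the 111 and 1668 over all genes. Between coding length and the ELA against ES change in each fraction, rho was 0.55 over the enzymes in Rpl10a-IP and −0.08 in input, and 0.63 and 0.20 over all genes.

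When each library was corrected for coding length and GC content by loess, a setting added after seeing the data, the conjugating enzymes, HECT ligases and N-degron readers lost most of their shift. The enzymes called by limma in the ratio were then 19 higher and 16 lower, beside 18.9% higher and 22.3% lower of all genes. The conjugating enzymes had a median of 0.08 with 2 higher and 1 lower, the HECT ligases 0.30 with 3 higher of 8, the N-degron readers 0.14 with 2 higher of 6, and the U-box ligases 0.24 with 0 called of 2. With transcript length and GC content corrected instead and the replicate number as a block, 39 enzymes were higher and 27 lower, beside 27.4% and 26.9% of all genes. The HECT ligases were then higher in 7 of 8 (median 0.55), the N-degron readers higher in 4 of 6 (0.48) and the conjugating enzymes lower in 8 of 15 (−0.46). Under the coding length and GC correction Huwe1 went from 1.17 to −0.06 and Ubr4 from 1.42 to 0.18 on the log2 scale, neither past the threshold. Mycbp2 had 0.35 (adjusted p 0.055). Ube2v2, Ube2b, Ube2k and Ube2d1 stood between −0.25 and −0.16, and Ube2d3 turned to 0.21, with adjusted p-values of 0.17 to 0.44. Ube2e1 (−0.81), Herc1 (0.40), Ubr2 (0.52) and Nedd4 (0.56) stayed past the threshold. Whether coding length itself or something that goes with it sets the ratio was not tested.

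**Figure D3:**
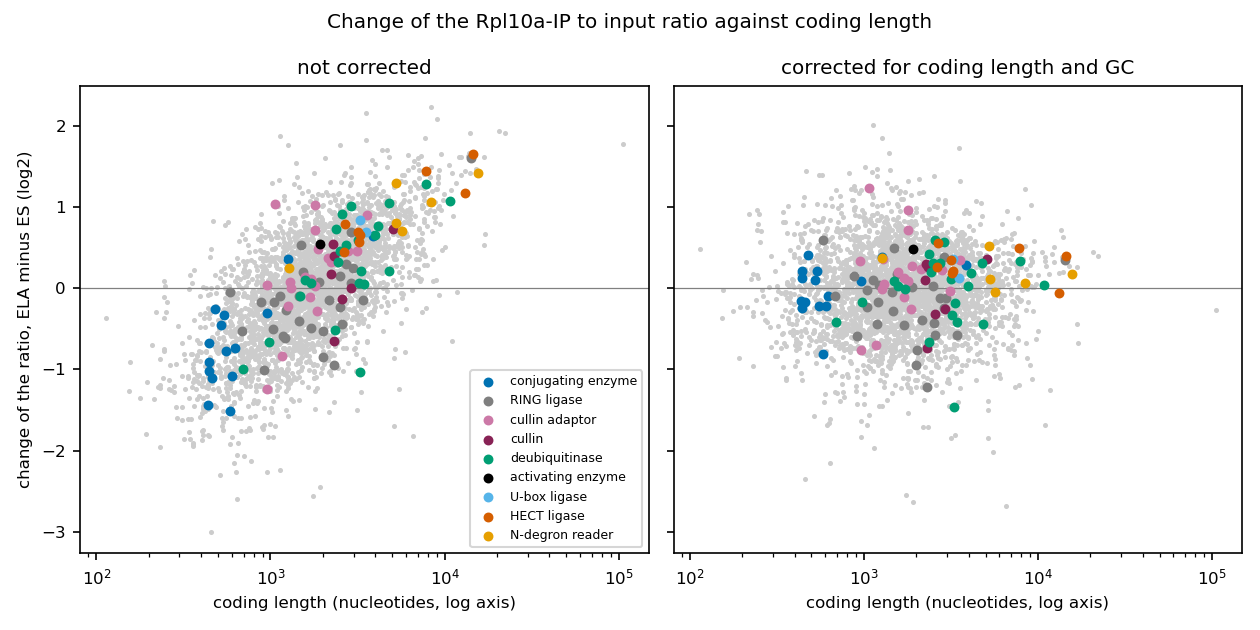
Change of the Rpl10a-IP to input ratio from ES to ELA (log2) against coding length (nucleotides, log axis), without correction (left) and after loess correction of each library for coding length and GC content (right); grey points are the 3119 genes with a transcript and coloured points the 111 enzymes by class. On the left the blue conjugating enzymes lie low at the short end and the HECT ligases and N-degron readers high at the long end, and on the right the medians of these 3 classes are 0.08, 0.30 and 0.14.

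The enzymes that passed in the same direction with and without this correction were 15 that rose (13.5%) and 13 that fell (11.7%), beside 13.6% and 16.4% of all genes. Their changes are set against genes of like coding length. Usp8, an endosomal deubiquitinase that acts on receptors, had the largest fall under the correction. It had 1201 and 1167 in ES input, 1150 and 1045 in ES Rpl10a-IP, 2501 and 2502 in ELA input, and 1072 and 1192 in ELA Rpl10a-IP. Total RNA rose without a rise on ribosomes, and the ratio fell by 1.03 without the correction and by 1.47 with it (adjusted p 1.06e-06 and 3.96e-07). Among the RING ligases, Trim2, which marks neurofilament protein, fell by 0.94 and with the correction by 1.21, Rnf6 by 0.85 and 0.95, and Rnf115 by 1.00 and 0.59, though Rnf115 overlaps Polr3c. Fbxo8 fell by 1.24 and 0.76.

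Fbxo32, the muscle F-box protein atrogin-1, had the largest rise under the correction. It had 97.9 and 102 in ES input, 67.8 and 75.6 in ES Rpl10a-IP, 272 and 286 in ELA input and 391 and 434 in ELA Rpl10a-IP. It lay below input on ribosomes in ES and above input in ELA, and the ratio rose by 1.04 without the correction and by 1.23 with it (by limma, adjusted p 7.56e-05 and 3.94e-05). Its ELA input values rest on 10 and 27 reads, and its exons overlap those of Gm15943 on the other strand. Fbxo32 passed the authors' filter on the input count only through ELA, where it was high. Fbxw8, the F-box partner of Cul7, which overlaps Gm9754 on the other strand, rose by 1.02 and 0.97, and Cul7 itself by 0.73 and 0.36. Uba2, the only activating enzyme that the symbol rule took, rose by 0.55 and 0.48. Among the deubiquitinases Usp4 rose by 1.02 and 0.57, and Usp10 and Usp13 also passed both times.

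Cullins and their adaptors were less uniform. In the ratio 3 of 7 cullins rose and 1 fell, and 7 of 20 adaptors rose and 2 fell. With total reads as the scaling 2 cullins rose and 1 fell, and 4 adaptors rose and 2 fell. Of all genes 23.5% rose and 31.2% fell under that scaling. Cul3, the scaffold of the BTB ligases, had 2913 and 3244 in ES input, 3927 and 3869 in ES Rpl10a-IP, 3969 and 4060 in ELA input and 2949 and 3563 in ELA Rpl10a-IP. Relative to the typical gene, Cul3 was above input on ribosomes in ES and below it in ELA. The ratio changed by −0.65 on the log2 scale (SE 0.15, adjusted p 0.00046 by limma) and by −0.74 with the correction. Cul1 rose by 0.40 and Cul4a by 0.54, with 0.26 (adjusted p 0.107) and 0.29 (adjusted p 0.129) under the correction, and Cul2, Cul4b and Cul5 did not pass. Of the deubiquitinases 10 of 23 rose and 4 fell, and of the RING ligases 3 of 29 rose and 11 fell, where 28.4% of all genes rose and 27.7% fell. With the coding length and GC correction the calls were 1 higher and 1 lower in the cullins, 4 and 2 in the adaptors, 3 and 4 in the deubiquitinases and 3 and 8 in the RING ligases, beside 18.9% and 22.3% of all genes.

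Within ES cells the differences between ribosome-bound and total RNA were small. By limma 32 enzymes were higher in Rpl10a-IP than in input (28.8%) and 12 lower (10.8%), beside 19.5% higher and 20.0% lower of all genes. None differed by more than 2-fold. Of the HECT ligases 6 of 8 were higher and 1 lower, with a median of 0.32 on the log2 scale, and with the coding length and GC correction 3 were higher. Of the cullins 5 of 7 were higher, with a median of 0.34, among them Cul2 by 0.72, Cul4b by 0.65 and Cul5 by 0.53 on the log2 scale. Cul4b had 5475 and 5790 in input and 8877 and 8812 in Rpl10a-IP, with no overlap. Klhl9, an adaptor of Cul3, and Ubr1 were higher by 0.62 and 0.60. The lowest were Rnf10 (−0.56), Rnf214 (−0.55), Trim39 (−0.50), Fbxo32 (−0.48) and Ube2d2a (−0.47). Without ES Rpl10a-IP replicate 1 the enzymes called were 23 higher and 5 lower, without replicate 2 they were 25 and 5, and with all 8 libraries 25 and 7. Over all 3160 genes the calls in both directions fell in these fits too, from 1247 to 722, 753 and 762. With the coding length and GC correction 21 were higher and 15 lower, beside 14% and 16.3% of all genes, and 3 of 7 cullins were higher.

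Within ELA the spread was wider. Limma called 52 enzymes higher in Rpl10a-IP (46.8%) and 34 lower (30.6%), beside 36.8% and 37.2% of all genes. The conjugating enzymes were lower in 13 of 15, with a median of −0.67, and the N-degron readers were higher in 6 of 6, with a median of 1.4. Among the largest excesses on ribosomes were those of Herc1 (1.82), Mycbp2 (1.72) and Usp24 (1.70), and the largest deficit that of Ube2e1 (−1.60), Ube2d1 (−1.49), Ube2v2 (−1.35) and Fbxo8 (−1.28). With the coding length and GC correction 37 were higher and 26 lower, beside 30.5% and 33.5% of all genes. The conjugating enzymes were then higher in 5 and lower in 3, with a median of −0.04, and the N-degron readers were higher in 5 of 6, with a median of 0.41.

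Total RNA was then compared between the stages. In input, 44 enzymes rose (39.6%) and 27 fell (24.3%) from ES to ELA, beside 34.5% and 35.8% of all genes. Corrected for coding length and GC content, 40 were higher and 37 lower, beside 34.1% and 35.6% of all genes, and with transcript length and GC content corrected instead 37 were higher and 41 lower, beside 33.1% and 35.3% of all genes. The E2s were among those that rose, 8 of 15 with 3 lower. The largest rise was that of Rnf144a, a RING-between-RING ligase, from 57.9 and 73.7 to 190 and 254, the latter from 7 and 24 reads. The table held genes with a mean input count of at least 50.0 in 1 stage, in the authors' scaling. Rnf144a reached that only in ELA, so its rise is tied to this filter. Trim33, a chromatin-reading ligase of the TGF-β pathway, went from 1671 and 1744 to 4377 and 4463, a log2 change of 1.37 (SE 0.10, adjusted p 4.39e-14). Fbxo32 (1.47), Ube2d1 (1.45), Trim44 (1.34), Fbxl20 (1.31), Ube2h (1.14) and Usp8 (1.08) also rose by more than 2-fold. Fbxo32 and Ube2d1, like Rnf144a, reached the input cutoff only in ELA. Trim13, a ligase of the endoplasmic reticulum, fell most, from 548 and 628 to 190 and 233. Trim13 reached the input cutoff only in ES, so its fall is tied to the filter too, and its ELA values rest on few reads. Trim28, the KAP1 corepressor that silences retroviral elements in ES cells, fell by 0.93, from 5926 and 5353 to 2746 and 3191. Ubr7 (−0.98), Trim6 (−0.93), Ube2c (−0.83), Uba2 (−0.83) and Usp48 (−0.83) fell as well. Ube2c, the E2 of the anaphase-promoting complex, had 969 and 965 in ES and 462 and 636 in ELA.

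In ribosome-bound RNA, measured in the deepest libraries, 56 enzymes rose (50.5%) and 36 fell (32.4%), beside 41.1% and 42.3% of all genes. Fbxo32 rose most, by 2.51, followed by Mycbp2 (2.11) and Herc1 (2.05). Others that rose were Ubr2 (1.77), Rnf144a (1.57), Cul7 (1.5) and Usp13 (1.44). All 8 HECT ligases rose, with a median of 0.90. Corrected for coding length and GC content, 44 enzymes were higher and 42 lower, beside 36.3% and 38.9% of all genes, and of the HECT ligases 4 were higher and 1 lower, with a median of 0.30. Trim13 fell most (−1.74), followed by Uchl3 (−1.66), Ube2v2 (−1.33), Trim6 (−1.33), Trim2 (−1.28), Rnf185 (−1.26), Ube2c (−1.16) and Otud6b (−1.11). Trim13 had 700 and 742 in ES and 210 and 220 in ELA, and Uchl3, a small deubiquitinase that also trims Nedd8, had 755 and 784 in ES and 245 and 241 in ELA. In both genes the 2 groups lay far apart. Trim13 passed the input filter of the table only through ES, and Fbxo32 and Rnf144a only through ELA.

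Total and ribosome-bound RNA passed the test in opposite directions in 12 enzymes. Total RNA was higher and ribosome-bound RNA lower in ELA in 8 of them, 7.21% of the 111 beside 4.84% of all genes: Ube2b, Ube2d2a, Ube2e1, Ube2e3, Ube2k, Cul3, Fbxo8 and Rnf6. Of the E2s, 5 of 15 were in this list, and over the class ribosome-bound RNA was higher in 4 and lower in 10, with a median of −0.25, beside 41.1% and 42.3% of all genes. The reverse held in Ube3c, Ubr4, Usp4 and Usp54, 3.60% of the 111 beside 4.49% of all genes. With the coding length and GC correction Fbxo8 and Rnf6 kept these calls and Usp8 joined them, 3 enzymes beside 3.75% of all genes. The reverse was then called in 1 enzyme, Rnf4, beside 3.14% of all genes. The E2s were then higher on ribosomes in 10 and lower in 2, with a median of 0.45, beside 36.3% and 38.9% of all genes. Both total and ribosome-bound RNA rose in 33 enzymes (29.7%) and fell in 18 (16.2%), beside 24.8% and 26.2% of all genes. Rpl10a-IP against input was past the threshold in opposite directions in ES and ELA, with the change of the ratio called, in 6 enzymes (5.41%) beside 3.96% of all genes, and with the correction in 1, Fbxo32, beside 2.44%.

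**Figure D4:**
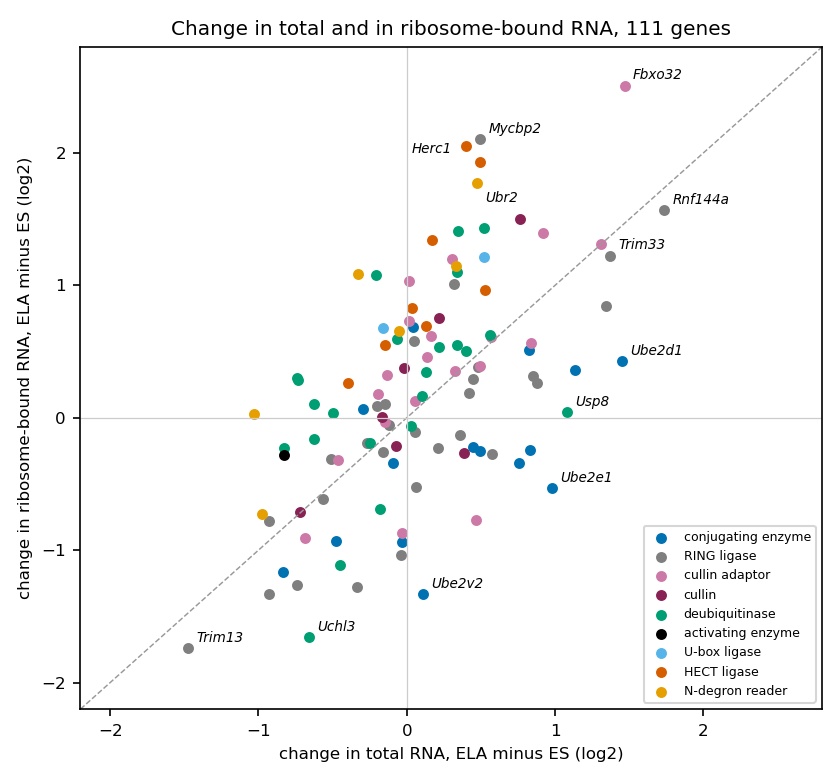
Change from ES to ELA in ribosome-bound RNA (vertical axis, log2) against the change in total RNA (horizontal axis, log2) for the 111 enzymes, coloured by class, with the line of equal change dashed. Of the 15 conjugating enzymes 13 lie below the line, the HECT ligases and N-degron readers lie above it, and Fbxo32 is highest on the vertical axis at 2.51.

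Levels can be compared between genes only per length. In RPKM, here reads scaled to transcript length and to the reads of the table, the median enzyme stood at 44.4 in ES input. Nedd4 was the most abundant, at 643 in ES input and 687 in ELA input, and 842 and 1465 in Rpl10a-IP. Trim28 (383), Cul4b (372), Usp7 (348) and Uba2 (321) followed in ES input, and Rnf144a was lowest, at 2.81. Among the conjugating enzymes Ube2v1 (248) and Ube2c (221) were among the highest in ES input, and exons of Ube2v1 overlap those of Tmem189 on the same strand. In ELA Rpl10a-IP they stood at 108 and 94.4.

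Of 49 enzymes of wide biological interest listed whatever their values, 30 were in the table. In the ratio 13 of them rose and 4 fell, Cul3, Trim71, Usp1 and Uchl3, where 28.4% of all genes rose and 27.7% fell. Under the coding length and GC correction the calls were 6 higher and 5 lower, beside 18.9% and 22.3% of all genes, and those of Uchl3, Huwe1, Ubr4, Mycbp2, Itch, Ube4b, Cul1 and Cul4a were among those lost. Trim71, a let-7 target of early embryos, had 3045 and 3307 in ES Rpl10a-IP and 2854 and 2564 in ELA Rpl10a-IP, and its ratio fell by 0.44 (limma, SE 0.17, adjusted p 0.024). Usp1, which acts on Fancd2 and PCNA, fell by 0.51. Itch (0.44), Ube4b (0.69) and Usp10 (0.73) were among those that rose. Without ELA input replicate 1 Trim71 stood at −0.21 and did not pass. Among those that did not pass were Ube2c, Cul4b, Cul5, Fbxw7, Fbxo5, Klhl9, Trim28, Trim33, Rnf8, Usp7, Usp22 and Otud4.

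Other genes of the ubiquitin system that the symbol rule does not take were listed for comparison, and 59 were in the table. In the ratio 19 rose and 13 fell, with a median of 0.12, where 28.4% of all genes rose and 27.7% fell. Under the coding length and GC correction 13 were higher and 8 lower, beside 18.9% and 22.3% of all genes. The values that follow are without it. The small modifiers fell: Rps27a, a ubiquitin precursor, by 1.44, Sumo2 by 1.46, Nedd8 by 0.75 and Sumo3 by 0.60 on the log2 scale. The RING subunit Rbx1 (−0.89) and the adaptor Skp1a (−0.72), both short, fell too, whereas Cand1 (0.91), which exchanges adaptors on cullins, and Ddb1 (0.97), the large adaptor of Cul4, rose. Of the anaphase-promoting complex, Anapc1 (1.09), Cdc23 (0.98), Anapc2 (0.89) and Anapc4 (0.69) rose and the small Anapc10 (−0.85) fell, while Anapc5 (0.29) and Cdc27 (−0.24) did not pass. Its activator Cdc20 rose by 0.42. The shuttle factor Ubqln2 had the largest fall of the list (−2.45). With the correction Nedd8 (0.12), Sumo3 (0.31), Rbx1 (−0.12), Skp1a (0.06), Anapc1 (0.29) and Anapc10 (0.09) did not pass, and the others named here as risen or fallen kept their calls. Cdc27 then passed as lower (−0.39, adjusted p 0.027 by limma).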

How the data were processed

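RNA-seq libraries of ES cells and ELA, 2 input and 2 Rpl10a-IP each, were analysed. Reads were aligned to the mm10 transcriptome (TopHat2) and counted per gene (HTSeq) by the authors, and the deposited signal columns hold these counts divided by DESeq2 size factors. Every value was a whole multiple of 1 read (tolerance 0.001), so reads per library could be read back. Size factors were set within each fraction (products 1.05 and 1.03). The other 26 columns, among them the authors' own fold changes, were not used, and 0 per-sample columns belonged to no sample here.

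The table had been filtered by the authors: the larger mean input value was at least 50.0, and the SD of the ratios was at most 20.0% of their mean in each stage. Genes outside it were not analysed here. Since genes were kept for replicates that lie close, the adjusted p-values run too low and the numbers called too high.

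Reads were divided by trimmed-mean-of-M-values scales over the 8 libraries. limma 3.58.1 (R 4.3.3; lmFit, eBayes with trend, two-sided) was fitted to log2(normalised count + 1) of all 3160 genes, with Benjamini-Hochberg adjustment over all of them and a threshold of 0.05. This scale understates changes of low genes. In the ES enrichment and the change in Rpl10a-IP the spread came wholly from the trend over all genes. A gene's own spread had no weight there. In the other comparisons the shared spread had 30.7 degrees of freedom and a gene's own 4. Enrichment in ES and the change in Rpl10a-IP used 7 libraries, without ELA input replicate 1, which the study's methods left out, and the other comparisons used all 8. Planned count models were not run. The fits were tested on simulated data.

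The enzymes and gene lists were chosen with earlier results of these data known. Enzymes are named for the largest log2 changes past the threshold with 1 sign in both replicates (up to 12 each way for the ratio, 5 for ES enrichment, 8 otherwise) or from a list of 49, and a few of these are not reported here by name. Klhl21, Rnf4, Trim59, Ube2e3, Ube2o, Ube2v1, Ube3c and Usp4 were chosen after their values were seen. Lengths, GC content and start contexts come from GENCODE vM1 (NCBIM37) for 111 enzymes and 3119 genes, and positions from RefSeq (GRCm38.p6). Exons of 25 enzymes overlap another gene on the opposite strand and of 7 on the same strand.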

Additional observations from a re-analysis of the deposited data

Results flagged for a closer look

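The Rpl10a-IP to input ratio differed between ES and ELA, by the interaction test of limma at an adjusted p under 0.05, in 68 of the 111 enzymes (61.3%), beside 56.2% of all genes, and with the coding length and GC correction in 35 (31.5%), beside 41.1% of all genes. In 6 of them (5.41%), beside 3.96% of all genes, the ratio was also past the threshold in opposite directions in the 2 stages. Higher than input in ES and lower in ELA were Uchl3, with a change of −1.0 on the log2 scale, Ube2d3 with −0.91, Cul3 with −0.65 and Trim59 with −0.62. Lower in ES and higher in ELA were Fbxo32 with 1.04 and Klhl21 with 0.72. With the coding length and GC correction Cul3 (−0.74), Fbxo32 (1.23) and Klhl21 (0.71) stayed past the threshold in the change of the ratio, and Uchl3 (−0.41), Trim59 (−0.17) and Ube2d3 (0.21) did not, and Fbxo32 was the only 1 of the 6 still past the threshold in opposite directions in the 2 stages. Klhl21 and Trim59 were picked out after their values were seen.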

How the results depend on the processing

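Counts of enzymes called in either direction together stayed within 1.5 times of the reported ones under the alternatives run, with these exceptions. With a loess correction for coding length and GC content, chosen after seeing the data, the enzymes called in the change of the ratio numbered 35 (31.5%, beside 41.1% of all genes) in place of 68 (61.3%, beside 56.2%), and 41 with the replicate block added. Leaving out 1 library at a time, those called in the ES enrichment numbered 28 to 49 (44 reported), the lowest without ES Rpl10a-IP replicate 1. By direction, those lower in the ES enrichment went from 12 to 5 without either ES Rpl10a-IP library and to 7 with all 8 libraries or with the low-value filter, those higher from 32 to 21 under the coding length and GC correction, and those lower in total RNA from 27 to 41 under the transcript length and GC correction (43 with the block). Those higher and lower in the ratio went from 40 and 28 to 19 and 16 under the coding length and GC correction (22 and 19 with the block). Over all genes the ES enrichment gave 1247 calls, 762 with all 8 libraries, and 722 and 753 without ES Rpl10a-IP replicate 1 and 2. Of 94 named values, 66 kept their sign and their side of the threshold under the alternatives run. Under at least 1 alternative 27 lost the threshold with their sign kept. In the change of the ratio 3 changed sign. Huwe1 (−0.0585) and Ube2d3 (0.21) did so under the coding length and GC correction, with or without the block. Trim59 (0.0187) did so under the transcript length and GC correction, with or without the block. Ube2d3 and Trim59 are also among the 27. Huwe1 is not, but it lost the threshold where its sign changed. The cause was not tested. The replicate block gave 47, 90, 71, 92 and 71 enzymes for the ES and ELA enrichment, total RNA, ribosome-bound RNA and the ratio (44, 86, 71, 92 and 68 without it), with 1320, 2414, 2299, 2650 and 1894 of all genes, and changed no call of a named value. Input and Rpl10a-IP were taken from 1 lysate, but the labels do not say that the number marks the lysate. Deviations of same-numbered libraries correlated over genes at 0.17 within ES, 0.50 within ELA and down to −0.02 between stages. A replicate block within each stage, added after seeing the data, gave 48, 90 and 71 enzymes for the ES and ELA enrichment and the ratio, with 1354, 2442 and 1940 of all genes, and changed no call of a named value. Total reads as the scaling moved the median of all genes in the ELA enrichment from −0.01 to −0.12, and the deposited size factors moved it from −0.02 to −0.12 in total RNA and to −0.14 in ribosome-bound RNA. The deposited factors gave no value for enrichments across fractions. The planned edgeR and DESeq2 fits were not run. The ELA input libraries, at medians of 26 and 66 reads, limit every ratio in ELA.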
